A study of Arabidopsis thaliana with 12 samples.

Results

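The interaction of genotype and temperature is the cold response of the Arabidopsis mutant sid2-1 minus the cold response of wild type, taken for each probe set as (sid2-1 at 4 °C minus sid2-1 at 22 °C) minus (wild type at 4 °C minus wild type at 22 °C). It uses all 12 arrays of the study, in 4 groups of 3 biological replicates. The 22 °C groups were wild-type Col-0 and sid2-1 plants raised in soil for about 23 days with 12 h of light per day. The 4 °C groups were the same genotypes with 3 further weeks at 4 °C under the same day length, taken 4 h after lights on. Plants of the 4 °C groups were therefore older, by the same 3 weeks in both genotypes. Each cold response thus holds age as well as temperature. In the interaction, a genotype difference in the effect of age and one in the effect of temperature cannot be told apart. RNA came from all above-ground tissue. The mutant is represented by 1 allele, and salicylic acid itself was not measured on these arrays.

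Salicylic acid is a plant hormone of defence against pathogens that live on living tissue. Most of what a leaf makes under attack comes from isochorismate synthase, the enzyme that the sid2-1 lesion disables, and the hormone acts through NPR receptors and WRKY factors on defence genes. Cold acclimation runs largely through another route, in which CBF factors switch on COR genes for dehydrins and membrane protectants. A negative interaction means that the log2 difference between 4 °C and 22 °C was lower in the mutant, and a value near 0 means that it was about equal in both genotypes.

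The values are log2 signals per probe set, normalized by the authors with GCRMA, and run from 2.2 to 14.46. Of these values 14.7% lie at the lowest value, where a fold depends on the background correction. The arrays had median signals of 4.39 to 4.47, and replicates correlated at 0.978 to 0.990 across probe sets. At 4 °C, wild-type replicate 2 stood apart from the other wild-type arrays. Its mean over the 2390 probe sets that rose in the cold was 7.47 against 7.38 and 7.32, and its mean over the 2262 that fell was 5.83 against 6.07 and 6.13. Values without it are given where it moves a result. The gene mutated in sid2-1 has no named probe set in the annotation used, so the genotype labels were not checked against it. Photosynthesis genes, which mark green shoots, were bright, with list means of 10.6 or more on every array, while 9 root and 10 pollen or flower markers had list means of 3.40 or less. Single members of the root and pollen lists were bright. LPR2 of the root list read 8.25 to 10.38, and TUA1 of the pollen and flower list 7.09 to 8.21.

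The question was which responses to cold differed between a plant that can make salicylic acid by this route and one that cannot. At an adjusted p under 0.05 (limma, Benjamini-Hochberg over 22746 probe sets), 14 probe sets passed, which is 0.0615% of those tested. Whatever the test, 1.91% of all probe sets had an interaction of -1 or lower and 1.05% one of 1 or higher. Of the 14, 13 had a negative interaction (0.0572%) and 1 a positive one (0.00440%). The 13 negative interactions ran from -5.47 to -1.84. At an unadjusted p under 0.05 there were 602 negative (2.65%) and 326 positive (1.43%) interactions, 928 in all. Evenly spread p values over 22746 probe sets would give 1137. However, 1283 of the probe sets lay at the lowest value on all arrays and could not pass, so 1137 is too high a yardstick here. Replicate numbers paired the genotypes within each temperature, and with them as a block within temperature no probe set passed, with a lowest adjusted p of 0.101 (limma) and 1401 at an unadjusted p under 0.05. Without wild-type replicate 2 at 4 °C, 46 probe sets passed, including all 14. No probe set passed without wild-type replicate 1 at 22 °C (873 at an unadjusted p under 0.05), and 70, again including all 14, without wild-type replicate 3 at 4 °C.

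The pattern of the 13 negative probe sets, which the interaction chose, is given as a description. On all of them the wild-type arrays at 4 °C lay above each of the 9 other arrays, which the choice by a negative interaction makes likely. At 22 °C the genotypes differed by -0.26 to 0.02 on the log2 scale. In 10 of the 13 the cold response of the mutant was smaller than 0.5 in size. The cold response of wild type passed in 12 of the 13 (13.0% of all probe sets), and that of sid2-1 in 1 (6.28% of all). That exception, a probe set with no gene in the annotation used, was at 7.08 ± 0.26 (SD, n = 3) in wild type at 4 °C and at 3.27 ± 0.24 (SD, n = 3) in sid2-1 at 4 °C. It fell by 2.91 in the mutant while wild type changed by 0.68. Another 4 called probe sets have no gene there either, among them the 2 with the most negative values at -5.47 and -4.41. The former read 11.56, 11.57 and 10.46 in wild type at 4 °C and 5.83, 5.03 and 5.60 in sid2-1 at 4 °C, with 4.58 to 5.36 on the warm arrays. In whole shoots, fewer cells of a type and less RNA per cell cannot be told apart.

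**Figure D1:**
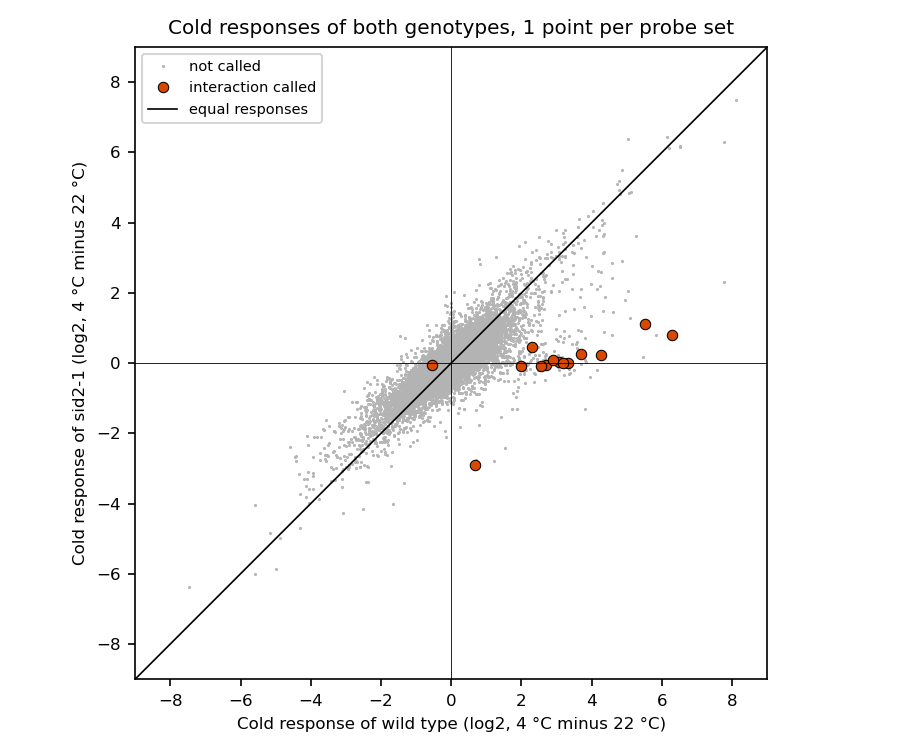
Cold response of sid2-1 (vertical axis) against that of wild type (horizontal axis), both as log2 differences between 4 °C and 22 °C, with 1 point per probe set and the line of equal responses. Most of the 14 probe sets called for the interaction (orange) lie to the right near the horizontal line at 0, with 1 called probe set well below it at a mutant response of -2.91.

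The probe sets called in the fit without a replicate block included 9 named genes, 8 of them with a negative interaction. With the block within temperature none of them passed. AT3G01830, a calmodulin-like calcium sensor, had signals of 6.75, 6.30 and 6.12 in wild type at 4 °C. Its signals were 3.15, 3.50 and 2.97 in wild type at 22 °C, 3.13, 2.99 and 2.88 in sid2-1 at 22 °C, and 2.99, 3.01 and 2.99 in sid2-1 at 4 °C. Wild-type plants at 4 °C stood alone, and the mutant stayed at its 22 °C level. The interaction was -3.19 ± 0.25 (SE, 3 arrays in each of 4 groups; limma adjusted p = 0.0135), a 9.11-fold smaller ratio of cold to warm in the mutant. AT5G39670, an EF-hand protein of the same family, read 7.91, 8.56 and 8.51 in wild type at 4 °C. In the mutant at 4 °C it read 4.49, 4.79 and 4.97, within reach of the 4.31 to 4.93 of warm wild type and the 4.11 to 4.97 of warm sid2-1. Wild type rose by 3.70 ± 0.27 (SE) and the mutant changed by 0.27 ± 0.27 (SE), an interaction of -3.43 ± 0.39 (SE; limma adjusted p = 0.0294).

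Of the called genes, 3 encode proteins with a TIR domain, the signalling module of one class of plant immune receptors. AT1G57630 had signals of 7.43, 7.69 and 6.25 in wild type at 4 °C and of 2.85, 2.85 and 3.16 in sid2-1 at 4 °C. On the 6 warm arrays it lay between 2.39 and 2.90, so cold wild type was the one group above the low end of the scale. Its interaction was -4.03 ± 0.47 (SE; limma adjusted p = 0.0295). AT2G20142 read 5.43, 6.33 and 6.13 in cold wild type against 3.03, 3.28 and 3.11 in the cold mutant, and between 3.02 and 3.07 on the warm arrays. Its interaction was -2.81 ± 0.27 (SE; limma adjusted p = 0.0172). AT1G66090, which also carries a nucleotide-binding domain, read 6.37, 6.12 and 5.69 against 4.02, 3.97 and 4.05 at 4 °C, with an interaction of -2.07 ± 0.20 (SE; limma adjusted p = 0.0172). The cold genotypes did not overlap in any of the 3, as in all 13 negative probe sets, which the interaction chose. The mutant's cold responses were 0.24, 0.10 and -0.08.

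The remaining negative genes have other roles. AT5G52760, of the heavy-metal-associated domain family, read 7.09, 7.45 and 6.46 in cold wild type and 3.45, 3.52 and 3.45 in the cold mutant (interaction -3.34 ± 0.37, SE; limma adjusted p = 0.0279). MSRB9, a methionine sulfoxide reductase that repairs oxidised protein, read 5.26, 5.55 and 4.48 against 2.27, 2.24 and 2.49 (-2.75 ± 0.34, SE; limma adjusted p = 0.0439). AT5G43910, a kinase of the pfkB carbohydrate kinase family, read 7.33, 7.33 and 7.08 against 5.03, 5.08 and 5.33 (-1.84 ± 0.20, SE; limma adjusted p = 0.0279). The mutant's cold values overlapped the warm range of 4.52 to 5.08 at its upper end, with a response of 0.46 ± 0.14 (SE; limma adjusted p = 0.108). AT5G44570 lay just outside the threshold, at 6.59, 6.60 and 5.07 in cold wild type and 2.2 to 2.25 on all other arrays (-3.82 ± 0.49, SE; limma adjusted p = 0.0515). Without wild-type replicate 2 at 4 °C it passed at -3.56 (limma adjusted p = 0.047), and without replicate 3 at -4.32 (limma adjusted p = 3.71e-11).

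**Figure D2:**
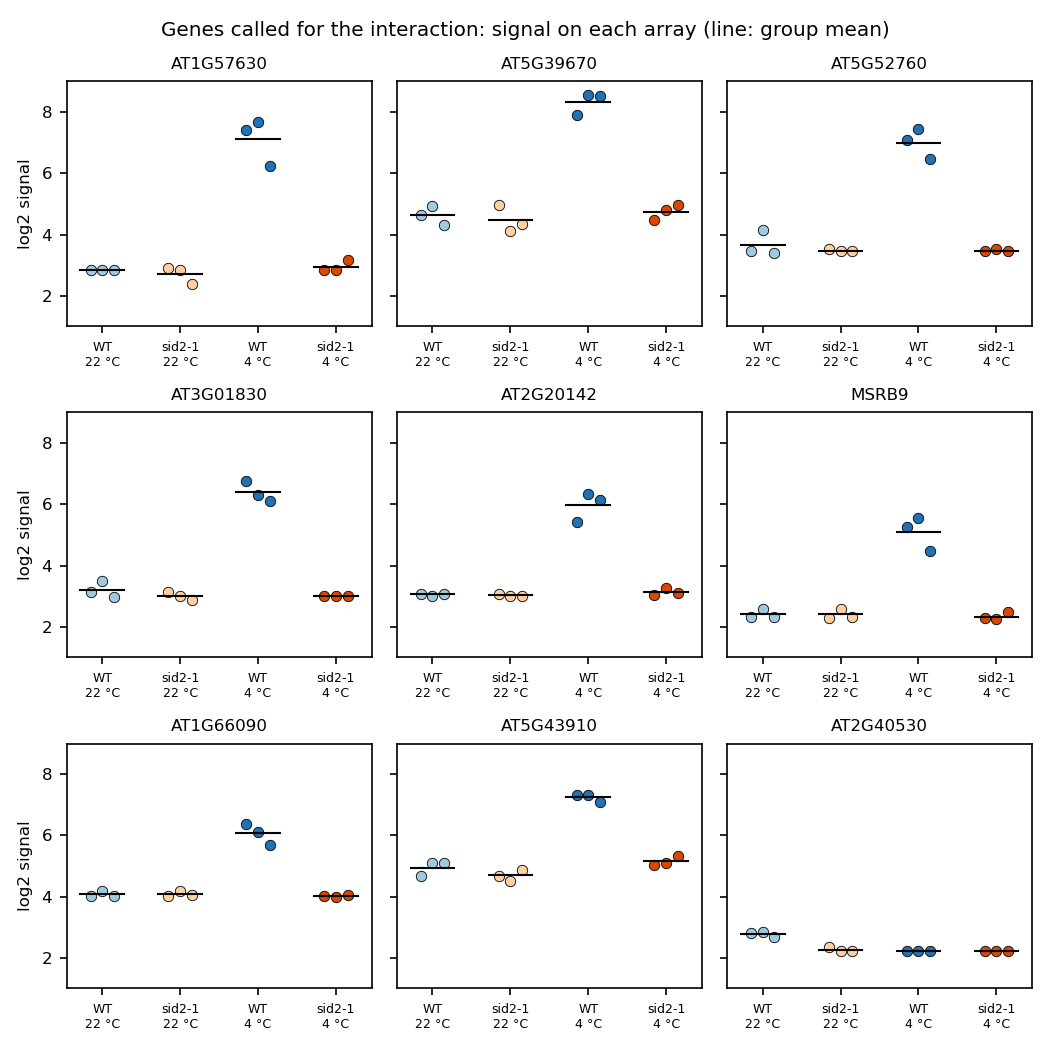
Log2 signal of the 9 named genes called for the interaction, with 1 point per array, 3 arrays per group and a line at the group mean. In 8 genes the wild-type arrays at 4 °C stand above the other 9 arrays; AT2G40530 lies below 3 throughout and is highest in wild type at 22 °C.

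Only 1 gene passed with a positive interaction, and it was dim. AT2G40530 read 2.81, 2.84 and 2.69 in wild type at 22 °C and between 2.21 and 2.34 on the 9 other arrays, close to the lowest value of the scale. Its interaction was 0.51 ± 0.06 (SE; limma adjusted p = 0.0295). The next genes in that direction did not pass. The one with the lowest p, TBL28, of a family that acetylates cell wall polysaccharides, read 3.62, 2.93 and 3.18 in cold wild type against 4.59, 4.66 and 4.51 in the cold mutant. Its warm values of 4.71 to 5.45 were shared by both genotypes, and its interaction was 1.43 ± 0.33 (SE; limma adjusted p = 0.433). The RimM-family gene AT5G46420 (0.80 ± 0.19) and the SEC14-domain gene AT1G72160 (0.82 ± 0.20) were next, with limma adjusted p values of 0.453 and 0.532 (SE). AT5G46420 fell by 1.00 in wild type (limma adjusted p = 0.00243) and by 0.20 in the mutant (limma adjusted p = 0.477). AT1G72160 fell in both genotypes, by 1.59 and 0.77 (limma adjusted p = 0.000535 and 0.0165), and its warm values of 8.47 to 8.72 in wild type lay above the 7.91 to 8.39 of the mutant. AT1G64300 at 0.28 and AT2G03630 at 0.08 lay below 3 on all arrays.

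Genes of pathogen defence that salicylic acid is known to raise formed the group with the lowest interactions. Of 42 such genes 19 were measured, all 19 had a negative value and 18 lay at or below -1, against 1.91% of all probe sets. Their median was -2.81, against 0 over all probe sets, and 3 passed the test. This list, like all the gene lists here, was written with results of these arrays known, so its direction is not independent evidence. The mean over the list was 8.28, 9.19 and 7.53 in wild type at 4 °C and 4.74, 5.55 and 5.26 in sid2-1 at 4 °C. At 22 °C it was 4.33, 4.85 and 4.43 in wild type and 4.17, 4.08 and 4.28 in the mutant. Every cold mutant array lay below every cold wild-type array, and array 1 of the cold mutant lay within the warm range. In wild type 16 of the 19 rose in the cold (13.0% of all probe sets passed in either direction) and in sid2-1 4 rose (6.28% of all). The median responses were 3.84 and 0.24. The list was highest in wild-type replicate 2 at 4 °C, and its median interaction was -2.55 with that array left out, and over all alternatives it lay between -3.16 and -2.40.

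Members of that group differed in how much response the mutant kept. SBT3.3, a secreted subtilase of immune priming, read 7.72, 9.40 and 6.23 in cold wild type and 2.31, 2.32 and 2.86 in the cold mutant. Its interaction of -5.28 ± 0.90 (SE) had a wide spread and did not pass (limma adjusted p = 0.165). SBT3.3 passed in 2 of 17 alternatives. These were the fits without wild-type replicate 2 at 4 °C (-4.47, limma adjusted p = 0.0226) and without replicate 3 (-6.06, limma adjusted p = 0.00644). CHI (AT2G43570), here a putative chitinase and not chalcone isomerase, read 9.37, 11.12 and 8.71 against 3.88, 6.03 and 5.56 (-3.78 ± 1.06, SE; limma adjusted p = 0.694). The cold groups did not overlap for either gene, yet the wild-type replicates of SBT3.3 had an SD of 1.59. AT5G18470, a lectin-like protein, rose in both genotypes, by 4.96 ± 0.42 (SE) in wild type and 1.79 ± 0.42 (SE) in the mutant (limma adjusted p = 0.000466 and 0.0414). AT3G60420 likewise rose by 4.23 and 2.18 (limma adjusted p = 0.00138 and 0.0331).

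Not all defence genes in the list lost their cold response in the mutant, as 2 of them show. AT2G43590, of the chitinase family, read 8.09, 9.40 and 6.63 in cold wild type and 7.63, 7.81 and 7.59 in the cold mutant, from 2.76 to 3.05 on the warm arrays. The cold groups overlapped, and the interaction was -0.25 with a 95% interval of -2.02 to 1.52. AT4G12490, a lipid-transfer-like protein, read 10.92, 13.15 and 10.37 in cold wild type and 7.60, 11.79 and 11.26 in the cold mutant. It rose by 7.77 and 6.29 (limma adjusted p = 0.00307 and 0.0135), with an interaction interval of -4.98 to 2.03. Neither interval is narrow enough to call the responses equal.

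Few genes of salicylic acid synthesis, perception and turnover have a named probe set. WRKY53, a transcription factor of defence and leaf senescence, read 6.89, 8.56 and 6.78 in cold wild type and 2.89, 4.91 and 3.47 in the cold mutant. Its warm values of 3.31 to 4.64 were shared by the genotypes, and the interaction of -3.72 ± 0.93 (SE) did not pass (limma adjusted p = 0.548). UGT76B1, which glucosylates immune regulators including salicylic acid, read 2.61, 3.02 and 2.81 in cold wild type and 2.2, the lowest value, on all 9 other arrays (-0.61 ± 0.11, SE; limma adjusted p = 0.226). It passed in 2 of 17 alternatives, 1 of them without wild-type replicate 2 at 4 °C (-0.51, limma adjusted p = 0.0336). AT5G52810, known as the reductase SARD4 of pipecolic acid synthesis, read 7.88, 8.33 and 7.12 against 4.92, 6.18 and 5.22 in the cold (-1.67 ± 0.67, SE; limma adjusted p = 0.936). SAG101, a partner of the immune regulator EDS1, had an interaction of -0.23 (95% interval -1.06 to 0.60). The glutaredoxin GRX480 stood at -0.66, WRKY22 at 0.04, the glucosyltransferase UGT74F1 at -0.13 and the methyltransferase BSMT1 at 0.27, none of which passed.

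Calcium sensors of the calmodulin-like family also had mostly negative interactions. Their list too was written with results of these arrays known. Of 24 listed genes 15 were measured, 14 with a negative interaction (44.7% of all probe sets) and 8 at or below -1 (1.91%). Their median was -1.43, and 2 passed, AT5G39670 and AT3G01830 (0.0572% of all passed as negative). The list mean was 6.11, 6.41 and 6.15 in cold wild type and 4.46, 5.04 and 4.79 in the cold mutant. On the warm arrays it lay between 4.59 and 5.25, so the mutant's cold values lay within that range or below it. In wild type 6 members rose and in sid2-1 none (13.0% and 6.28% of all probe sets passed in either direction). CML37 read 4.11, 4.25 and 3.25 in cold wild type and 2.25 to 2.42 on the 9 other arrays (-1.54 ± 0.31, SE; limma adjusted p = 0.266). CML41 read 4.41, 7.10 and 5.18 against 2.47, 3.18 and 2.48 in the cold (-2.81 ± 0.81, SE; limma adjusted p = 0.735). The list median was -1.02 with wild-type replicate 2 at 4 °C left out and -0.92 with sid2-1 replicate 1 at 4 °C left out.

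Among 13 measured receptor-like kinases and receptors of immunity, 9 had a negative interaction, with a median of -0.25 that was -0.10 without wild-type replicate 2 at 4 °C and -1.30 over the 6 members above the dim limit. Members differed widely. AT1G66090 passed, and the TIR-domain genes AT1G72920 (-2.61 ± 0.64, SE) and AT1G72900 (-2.59 ± 0.49, SE) did not (limma adjusted p = 0.536 and 0.239). AT1G72900 read 7.55, 7.78 and 7.06 in cold wild type and 4.13, 5.30 and 4.67 in the cold mutant, where 22 °C values were 5.24 to 6.16. By contrast BIK1, a kinase downstream of pattern receptors, rose in both genotypes, by 1.95 and 1.45 (limma adjusted p = 0.00395 and 0.0233). SD1-29, a receptor kinase for bacterial fatty acids, rose by 1.84 and 2.32 (limma adjusted p = 0.00741 and 0.0047) (interaction 0.48 ± 0.45, SE). Of the 13, 6 had an interval within 1 log2 unit of 0, against 65.7% of all probe sets, and these 6 had group means below 3.

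Jasmonate and ethylene defence genes did not give a clear answer. PDF1.2 and PDF1.2b, plant defensins that jasmonate induces, had interactions of -3.15 ± 1.80 (SE) and -3.44 ± 1.49 (SE), and neither passed (limma adjusted p = 0.936 for each). PDF1.2b read 9.30, 9.21 and 7.75 in cold wild type, 8.39, 5.84 and 8.48 in the cold mutant, 4.80, 5.87 and 4.50 in warm wild type and 9.43, 6.73 and 5.77 in warm sid2-1. The mutant's arrays were thus spread at both temperatures, and 1 of its warm arrays was as high as cold wild type. The other 3 of the 5 measured members had interactions between -0.43 and -0.03.

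**Figure D3:**
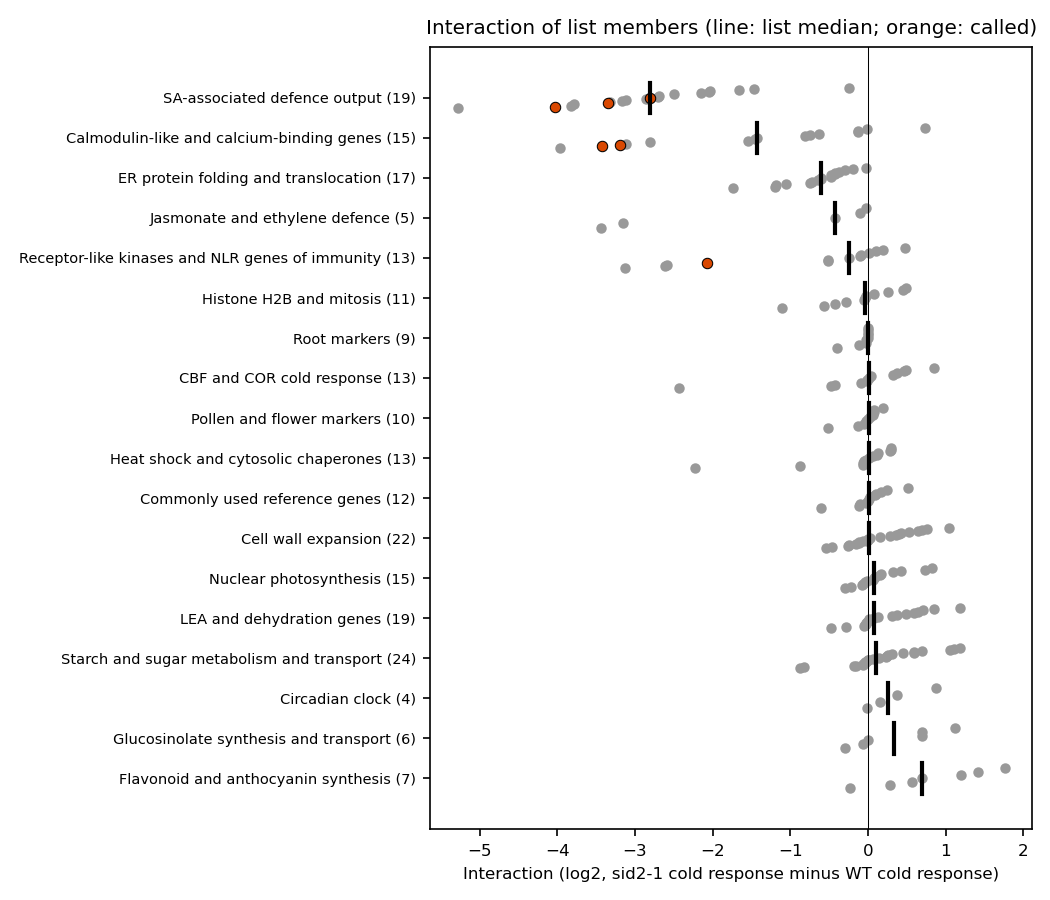
Interaction (log2, horizontal axis) of each measured member of 18 gene lists, with the number measured in brackets, a line at the list median and called members in orange. Defence output and calmodulin-like genes have the lowest medians, -2.81 and -1.43, and the cold, photosynthesis and reference lists have medians of 0.08 or less in size.

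Genes of protein folding in the endoplasmic reticulum, which serve secretion and rise when the organelle is under load, had a smaller shift of one sign. This list too was written with results of these arrays known. Of 44 listed genes 17 were measured and all 17 had a negative interaction. The median was -0.60, 4 lay at or below -1 (1.91% of all probe sets) and none passed limma's test, while 4 had an unadjusted p under 0.05 (2.65% of all were negative and below it). Over all probe sets 44.7% were negative. The list mean was 7.62, 7.88 and 7.27 in cold wild type and 6.80, 6.91 and 6.85 in the cold mutant, and the 6 warm arrays lay between 6.33 and 6.67. Cold sid2-1 was therefore above all warm arrays and below all cold wild-type arrays. Of the 17, 10 rose in wild type and 4 in sid2-1 (13.0% and 6.28% of all probe sets were called), with median responses of 1.25 and 0.31.

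BZIP60, a regulator that genes of protein folding answer to under stress, read 8.83 to 9.21 in cold wild type and 7.16, 8.05 and 7.85 in the cold mutant. Its 22 °C values ran from 6.70 to 7.37, and the interaction was -1.20 ± 0.38 (SE; limma adjusted p = 0.920). AT3G60540, a Sec61 beta subunit of the translocon, read 7.07 to 8.19 against 5.69 to 6.32 (-1.74 ± 0.50, SE; limma adjusted p = 0.722). The Sec61 alpha genes kept a rise in the mutant. AT1G29310 rose by 2.61 and 1.88 (limma adjusted p = 0.000579 and 0.00339) and AT2G34250 by 1.30 and 0.69 (limma adjusted p = 0.00095 and 0.0215). The calnexin gene AT5G07340 rose by 1.80 and 1.38 (limma adjusted p = 0.00114 and 0.00567), with an interaction interval of -1.05 to 0.21.

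Genes of the CBF and COR cold pathway rose in both genotypes. Of 37 listed genes 13 were measured, 6 with a negative interaction, with a median of 0.01. In wild type 8 rose and in sid2-1 also 8, against 13.0% and 6.28% of all probe sets called in either direction. In the mean of both, 11 rose (20.5% of all probe sets passed there in either direction). The median responses were 2.52 in wild type and 3.00 in sid2-1. COR15A, a protectant of chloroplast membranes, read 13.22, 12.63 and 13.42 in cold wild type and 12.74, 13.13 and 13.36 in the cold mutant, from 8.84 to 11.22 on the warm arrays. LTI30, a dehydrin, read 12.49, 12.13 and 12.75 in cold wild type and 11.61, 12.69 and 13.06 in the cold mutant, from 5.51 to 6.96 on the warm arrays. In both genes the cold genotypes overlapped and stood clear of every warm array.

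The intervals show how far a difference could go. COR15A rose by 3.06 and 3.05 (limma adjusted p = 0.0186 and 0.0314), an interaction of -0.01 with a 95% interval of -2.13 to 2.12. COR15B rose by 3.57 and 3.58, with an interval of -1.35 to 1.37, and LTI30 by 6.14 and 6.45, with an interval of -1.15 to 1.78. COR27, a cold-induced gene tied to the clock, rose by 4.72 and 5.09 (interval -0.95 to 1.68), and AT4G33980 by 2.42 and 2.40 (interval -1.46 to 1.43). The dehydrin gene COR47 had an interaction of 0.85 (interval -0.65 to 2.35). Only AT1G54410 of the 13 had an interval within 1 log2 unit, -0.64 to 0.73, so a difference of less than 2-fold between the genotypes is not shown for the others. STZ, a zinc finger repressor of several stresses, stood apart at -2.43 ± 1.41 (SE; limma adjusted p = 0.936). It read 7.32, 7.50 and 7.17 in cold wild type and 4.08, 4.23 and 5.23 in the cold mutant, with 22 °C values of 3.08 to 6.95 over both genotypes.

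**Figure D4:**
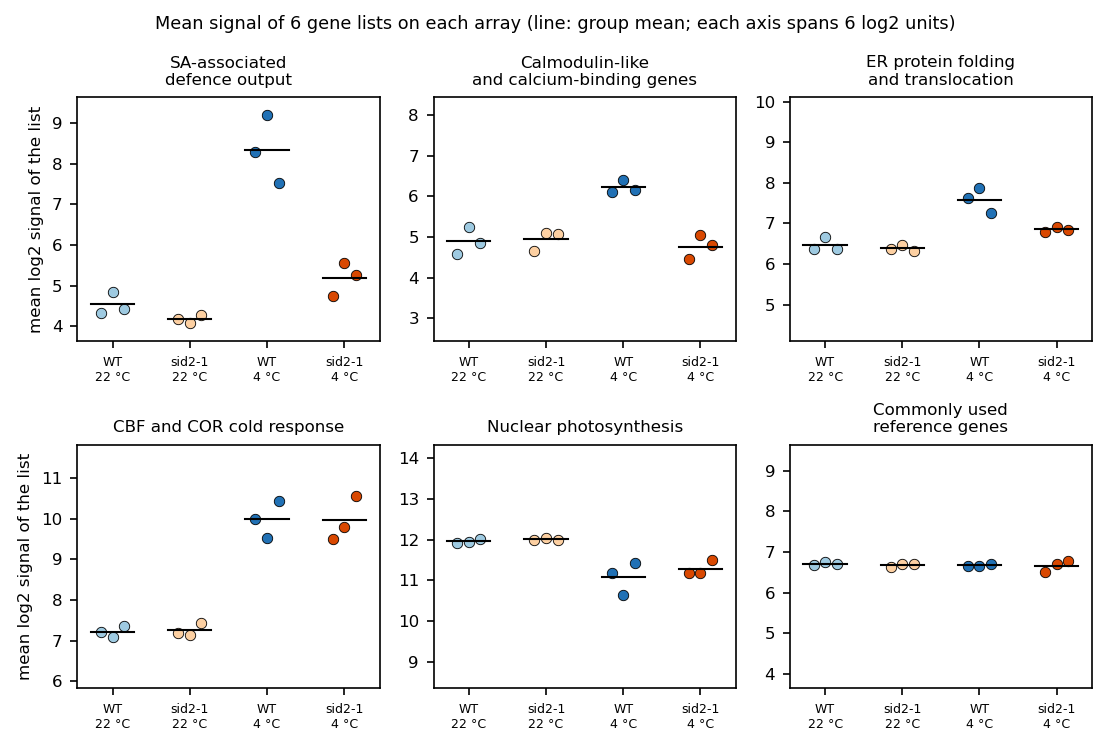
Mean log2 signal of 6 gene lists on each array, with 3 arrays per group, a line at the group mean and every vertical axis spanning 6 log2 units. The first 3 lists are higher in wild type than in sid2-1 at 4 °C on every array, whereas the cold genotypes overlap for the CBF and COR list, nuclear photosynthesis and the reference genes.

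Most measured genes of LEA proteins and dehydration had little response to cold in either genotype. Of 19, 4 rose in wild type and 5 in sid2-1, against 13.0% and 6.28% of all probe sets called in either direction. The list's median responses were 0.03 and 0.13. Of the 19, 1 both responded in the mean of the genotypes and had an interval within 1 log2 unit (1958 of all 22746). The median interaction of the list was 0.08, and 0.54 over the 8 members above the dim limit. AT1G16850 rose by 4.85 in wild type and 5.50 in sid2-1 (limma adjusted p = 0.00125 and 0.00126). All 4 measured clock-associated genes rose in each genotype, against 13.0% of all probe sets called in wild type and 6.28% in sid2-1. Their median interaction of 0.26 moved with single cold arrays, to -0.11 with sid2-1 replicate 3 left out, -0.03 with wild-type replicate 2 left out and 0.63 with wild-type replicate 3 left out. GI, a clock protein of flowering time, rose by 1.67 ± 0.24 (SE) and 2.55 ± 0.24 (SE). Its cold values of 9.17, 9.09 and 9.49 in wild type and 9.30, 9.16 and 9.87 in the mutant overlapped, while its 22 °C values of 7.84, 7.47 and 7.42 in wild type lay above the 7.16, 7.02 and 6.50 of the mutant. The interaction of 0.88 (95% interval 0.12 to 1.64) did not pass (limma adjusted p = 0.936).

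A few genes of sugar transport and photosynthesis passed in both genotypes. SWEET17, a fructose transporter of the vacuole, fell to 3.04, 4.30 and 2.98 in cold wild type and to 3.92, 4.80 and 3.57 in the cold mutant, from 7.89 to 9.27 on the warm arrays. Its cold responses were -5.16 and -4.85 (limma adjusted p = 0.000598 and 0.00129), with an interaction interval of -1.24 to 1.85. TMT1, which loads sugar into the vacuole, rose by 1.68 and 1.75 (limma adjusted p = 0.00816 and 0.0121), with an interval of -0.88 to 1.02. Of 24 measured genes of starch and sugar, 2 rose and 3 fell in wild type, and 3 rose and 3 fell in sid2-1, against 13.0% and 6.28% of all probe sets called. Their median interaction was 0.11, and 0.45 over the 13 above the dim limit. Of the 24, 2 both responded in the mean of the genotypes and had an interval within 1 log2 unit (1958 of all 22746 probe sets). Of 15 measured nuclear photosynthesis genes 3 fell in wild type and 2 in sid2-1, against 13.0% and 6.28% of all probe sets called. In the mean of both genotypes 11 of the 15 fell (9.94% of all probe sets). The median interaction of the 15 was 0.08. PGRL1B, of cyclic electron flow, fell by 2.54 in wild type and by 2.21 in sid2-1 (limma adjusted p = 0.000566 and 0.00153), with an interval of -0.41 to 1.06. The antenna gene LHCB4.3 fell by 2.47 and 2.29 (limma adjusted p = 0.00518 and 0.0125). The photosynthesis list was lowest in wild-type replicate 2 at 4 °C, and with that array left out its median was -0.16.

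Smaller falls in the mutant appeared in a few single genes, none of which passed. EXPA4, an expansin of cell wall loosening, read 4.99, 4.68 and 4.81 in cold wild type and 5.47, 6.46 and 6.20 in the cold mutant (interaction 1.04 ± 0.46, SE; limma adjusted p = 0.936). AT2G31790, a glucosyltransferase of glucosinolate synthesis, read 6.70, 6.06 and 6.05 against 7.36, 7.29 and 6.73 (1.12 ± 0.43, SE; limma adjusted p = 0.936). NdhN, a subunit of the chloroplast NDH complex, read 7.78, 6.87 and 8.16 against 8.27, 8.13 and 8.49 (0.83 ± 0.40, SE; limma adjusted p = 0.936). Medians of the cell wall and glucosinolate lists were 0.02 and 0.34, and 0.36 and 0.69 over their 9 and 5 members above the dim limit. The glucosinolate median was 0.08 with sid2-1 replicate 2 at 4 °C left out, and 0.11 with wild-type replicate 3 of the cold left out instead.

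Among 13 measured heat shock proteins and chaperones, 1 had an interaction below -1. Hsp70-2 read 6.31, 6.72 and 5.71 in cold wild type and 3.62, 4.13 and 3.93 in the cold mutant, with 22 °C values of 3.83 to 4.35. Its interaction was -2.23 ± 0.36 (SE; limma adjusted p = 0.126), and the list median was 0.02. HTB2, a histone H2B, rose by 2.65 and 1.55 to the same cold level of 7.56 and 7.51, from 22 °C means of 4.92 in wild type and 5.97 in the mutant (interaction -1.10 ± 0.39, SE; limma adjusted p = 0.936). Anthocyanin genes were too variable to compare: DFR, an enzyme of that pathway, read 8.99, 3.21 and 2.92 in cold wild type and 8.05, 11.26 and 3.40 in the cold mutant, with an interaction interval of -5.15 to 8.67. The 12 measured reference genes had a median interaction of 0.02.

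Across the transcriptome, the direct test of equal responses is the width of the interval. Probe sets were first sorted by the mean cold response of both genotypes, a quantity that in this balanced design does not favour a sign of the interaction. By limma at an adjusted p under 0.05, 2390 rose (10.5%) and 2262 fell (9.94%). Of the 2390 that rose, 12 were called for the interaction, 1058 (44.3%) had an interval wholly within 1 log2 unit, and 1320 were neither. Of the 2262 that fell, 2 were called, 899 (39.7%) lay within and 1361 were neither. At a mean change of at least 2-fold, 151 of 906 that rose (16.7%) and 143 of 992 that fell (14.4%) lay within. Over all probe sets tested the share within was 65.7%. Counting also AT2G40530, which was called and had its interval within, the total was 1958, and it depends on the margin, with 194 at 0.5 and 3451 at 1.5 log2 units.

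Both directions of cold response were on balance somewhat smaller in the mutant. Of the probe sets that rose, 64.2% had a negative interaction, with a median of -0.163 and median responses of 0.94 in wild type and 0.733 in sid2-1. Of those that fell, 29.7% had a negative interaction, with a median of 0.185 and median responses of -1.01 and -0.827. Over all probe sets 44.7% were negative. On the arrays, the mean of the probe sets that rose was 7.38, 7.47 and 7.32 in cold wild type and 7.05, 7.22 and 7.14 in the cold mutant, against 6.15 to 6.26 on the warm arrays. For those that fell it was 6.07, 5.83 and 6.13 against 6.14, 6.25 and 6.28, with warm values of 7.13 to 7.34. The genotypes did not overlap at 4 °C in either set, though by narrow margins, and these means carry no test.

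Among genes with an interval within 1 log2 unit, the 6 with the largest mean rise and the 6 with the largest mean fall were named. AT5G51570, of the SPFH membrane protein family, read 9.33, 9.69 and 9.47 in cold wild type and 8.78, 8.78 and 9.09 in the cold mutant, from 4.92 to 5.54 on the warm arrays. Its mean rise was 3.99 ± 0.12 (SE) with an interaction interval of -0.97 to 0.15. The cold genotypes did not overlap, although the difference of 0.61 was small beside the rise. SCPL49, a serine carboxypeptidase-like enzyme, rose by 3.24 and 3.02 (interval -0.81 to 0.37). AT5G14550, AT1G52770, AT3G58570 and AT1G33265 followed with mean rises of 2.95, 2.35, 2.29 and 2.15.

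The largest fall in that class was that of AT1G67870, which read 8.76, 8.83 and 9.10 in cold wild type and 8.30, 8.67 and 9.39 in the cold mutant, from 11.17 to 11.61 on the warm arrays. Its responses were -2.50 in both genotypes and the interaction was 0.00 (interval -0.79 to 0.79). AT5G39790, a carbohydrate-binding protein of the plastid, fell by 2.51 and 2.46 (interval -0.79 to 0.89). The lipase-like GDSL genes AT5G14450 and AT3G53100 fell by 2.43 and 2.42 in the mean of both genotypes, and AT4G10060 and the methyltransferase-family gene AT3G21950 by 2.11 each. By the rule that chose these 12 genes, their intervals place the difference between the genotypes at less than 2-fold. All 12 also passed in each genotype by limma, which that rule makes likely.

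**Figure D5:**
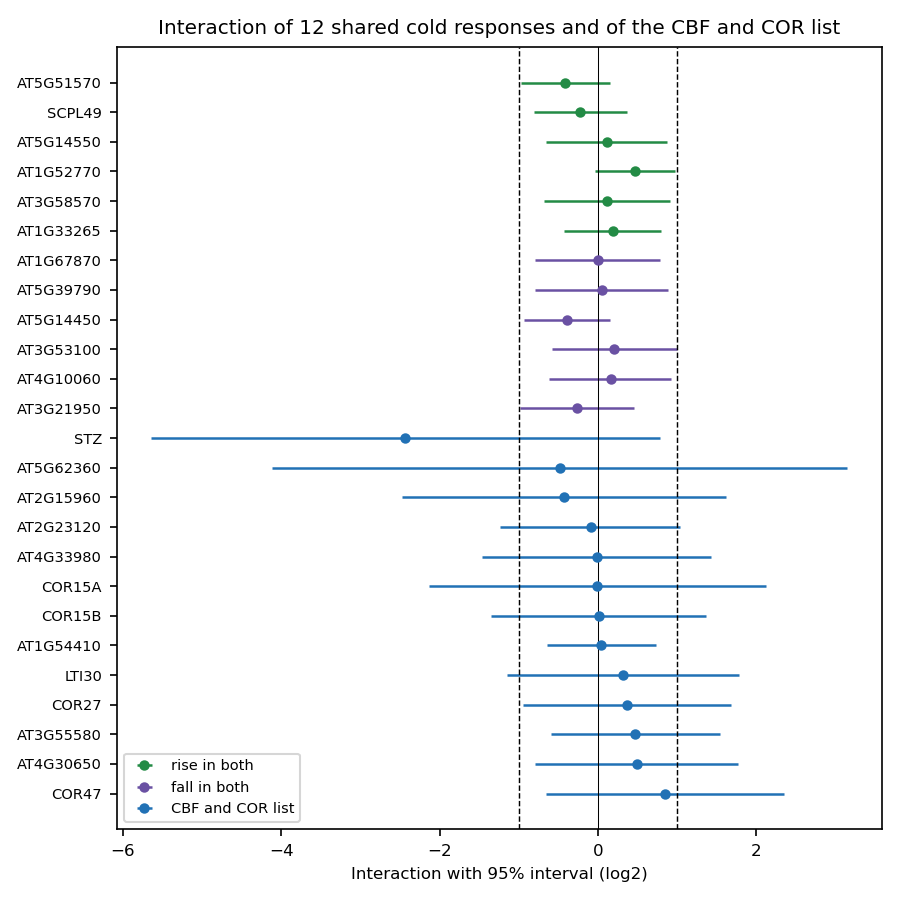
Interaction with its 95% interval (log2, horizontal axis) for the 12 shared responses named above, 6 rises and 6 falls, and for the 13 measured CBF and COR genes; dashed lines mark -1 and 1. By choice the first 12 intervals lie between the dashed lines, and of the CBF and COR genes only AT1G54410 does.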

How the data were processed

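The deposited table holds log2 signals of 12 one-colour Affymetrix arrays, made by the authors with GCRMA (background correction from probe sequence, quantile normalization and summary per probe set), and GCRMA and limma are named without versions in the submitters' processing notes. Which arrays were normalized together is not given in the sources used here, nor is what a bracketed mark in the titles of the warm wild-type arrays stands for. Of 22810 probe sets 64 controls were left out. The platform table at hand joins 13513 of the 22746 tested to 1 gene and 503 to several, and 8730 have none here; 13436 were found in the reference gene table.

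One limma model (limma 3.58.1, R 4.3.3; lmFit, contrasts.fit and eBayes) took all arrays together, with 1 mean for each group. The p values are two-sided, adjusted over the 22746 probe sets, and called at 0.05. No filter on dim probe sets was set. Intervals are 95% limma intervals. The fit was tested on simulated data. Precision is set by the number of arrays, since signals are not counts. Replicates are labelled biological, and nothing more is said of their source.

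Same-numbered arrays deviated from their group means together within 22 °C (correlations of 0.418, 0.283 and 0.467 over 12422 probe sets with a mean above 4) and within 4 °C (0.211, 0.227 and 0.252). The numbers were therefore taken as pairs of genotypes within a temperature. Across temperatures, same-numbered arrays correlated at -0.048 to 0.371, so pairing there was uneven. The main fit held no replicate block, so the SEs, intervals and adjusted p values given for genes leave this pairing out.

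The named genes were the called ones, those with the lowest p where fewer than 6 were called in a direction, the 6 largest rises and falls with an interval within 1 log2 unit, up to 3 members per list with the lowest interaction p, and a set named in earlier work. Further list members were named as examples after their values were seen. The comparison, the 23 lists (780 genes, 237 measured, 18 lists with 4 or more) and the rules were chosen with earlier results of these data known. Tables were made with Python 3.11.15 and pandas 2.3.3, and plots with matplotlib 3.10.9.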

Additional observations from a re-analysis of the deposited data

Results flagged for a closer look

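With replicate numbers as a block within temperature, no probe set passed the interaction test (lowest limma adjusted p = 0.101). In the fit without that block, the cold responses of the genotypes differed by this direct test in 14 probe sets. Among the named genes these were AT1G57630 (-4.03), AT5G39670 (-3.43), AT5G52760 (-3.34), AT3G01830 (-3.19), AT2G20142 (-2.81), MSRB9 (-2.75), AT1G66090 (-2.07), AT5G43910 (-1.84) and AT2G40530 (0.51), all on the log2 scale by limma at an adjusted p under 0.05. In 10 of the 13 negative probe sets wild-type replicate 2 at 4 °C was the highest of its group, and its part in them was not tested beyond leaving it out, after which all 14 passed. AT2G40530 lies near the lowest value on 9 arrays.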

How the results depend on the processing

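Every named called gene kept its sign in all alternatives, with an unadjusted limma p of at most 0.000971, whereas adjusted calls came and went. Of 14 calls for the interaction, the count was 30 with dim probe sets filtered out (mean of 4 or less), which kept the 8 of the 14 that remained in the test, and 23 with that filter and wild-type array 2 at 4 °C left out, an alternative chosen after seeing the data. The replicate block over all groups gave 3 calls and the block within each temperature, where the pairing holds, gave 0. Leaving out 1 array gave 0 to 70 calls, of which 14 were shared at 46 (without wild-type replicate 2 at 4 °C) and at 70 (without wild-type replicate 3 at 4 °C). The share of positive calls moved from 7.14% to as much as 58.8% without wild-type replicate 3 at 22 °C, and to 6.67% with a further quantile normalization. Called list members numbered 6, and 1 with the replicate block, 0 with the block within each temperature and 0 to 11 without 1 array. AT3G01830 was called in 15 of 17 alternatives. Calls for the cold response of wild type numbered 2956, with 1865 to 2859 without 1 array, 1407 with wild-type arrays alone, 3710 with the dim filter, 3732 with array weights and 3317 with the replicate block. For sid2-1 they went from 1428 to 2243 with the dim filter, 2380 with the filter and array 2 left out, 788 to 1457 without 1 array and 376 with mutant arrays alone. Probe sets within the margin numbered 1958, with 194 at 0.5 and 3451 at 1.5 log2 units. Beyond the fewer arrays or probe sets in a fit, the cause was not tested. The share of negative interactions among probe sets that rose stayed between 57.2% and 70.0%, and among those that fell between 22.8% and 38.4%. With 3 arrays per group, intervals reached a median of 0.751 log2 units to each side for probe sets that rose and 0.801 for those that fell, so smaller differences could not be bounded for most.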
